A study of Mus musculus with 6 samples.

Results

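Cholesterol and fatty acid synthesis were described here through 32 genes chosen by function: 17 enzymes of the sterol pathway, 5 genes of its regulation and transport, and 10 enzymes that make, elongate or desaturate fatty acids. They were among 16749 genes listed in at least 1 library. All 32 symbols matched a gene number in the tables, and 31 had at least 1 FPKM (fragments scaled to transcript length and to the mapped fragments of the library) in all 6 libraries. The exception was Fads2, which was listed at 0.24 FPKM in 1 WT library and missing from the other 5.

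The ID2KO group held 3 libraries from mice with both Cd4-Cre and floxed Id2 (Cd4creId2f/f), and the WT group 3 libraries from mice with floxed Id2 alone (Id2f/f). Both groups shared the C57BL/6 background, the floxed allele, the tissue (labelled iLN), the presence of a tumor and treatment with oxaliplatin, a platinum drug that damages DNA. CD8+ T cells were sorted by flow cytometry and their total RNA sequenced. Ages, the tumor and the drug's dose and timing are not stated in the labels. Cd4-Cre is active from an immature stage of T cell development in the thymus, so the gene is lost in T cells before they respond to antigen, and Cre was present in the ID2KO group alone. Whether the samples of a group came from separate animals is not stated, and a p-value therefore reflects how far these 6 samples spread, be it technical or biological.

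Libraries held between 7699181 and 8495123 expected counts. Id2, which encodes an inhibitor of E protein transcription factors, stood at 1.67, 2.64 and 2.12 FPKM in ID2KO and at 371, 147 and 149 FPKM in WT. The T cell genes Cd3e and Cd8a were high in every library, between 279 and 375 FPKM and between 196 and 232 FPKM, and Cd4 did not exceed 2.97 FPKM. Of 16 B cell markers, 14 were listed, and their summed level was 697, 3001 and 627 FPKM in ID2KO and 943, 3151 and 3684 FPKM in WT. Sums of myeloid and dendritic markers were 31.0 to 39.4 FPKM in ID2KO and 34.5 to 57.0 FPKM in WT, with Lyz2 the highest marker in each library, and those of NK cells 16.1 to 17.3 FPKM in ID2KO and 11.7 to 16.8 FPKM in WT. Sums for stroma and endothelium were 42.6 to 46.9 FPKM in ID2KO and 36.4 to 46.1 FPKM in WT. Of the 5 tested myeloid and dendritic markers, 2 fell by edgeR. Itgax stood at 0.34, 0.96 and 0.35 FPKM in ID2KO and 12.85, 5.66 and 5.54 FPKM in WT (edgeR adjusted p = 0.000654). Zbtb46 stood at 0.68, 1.6 and 0.45 FPKM in ID2KO and 3.86, 4.22 and 3.46 FPKM in WT (edgeR adjusted p = 0.00755). Lyz2 overlapped without passing, at 26.5, 30.0 and 27.0 FPKM in ID2KO and 28.2, 20.2 and 19.3 FPKM in WT. Xcr1 overlapped too, at 2.04 to 3.37 FPKM in ID2KO and 2.31 to 3.58 FPKM in WT. Siglech, too low to be tested, was higher in ID2KO, at 0.39 to 0.70 FPKM against 0.24 to 0.30 FPKM in WT. Itgam lay below WT in every ID2KO library without passing (edgeR adjusted p = 0.0521). Sparc was the 1 of 2 tested stromal markers that fell, with at most 0.33 FPKM in ID2KO and 1.12 to 4.08 FPKM in WT (edgeR adjusted p = 0.00568). Genes were tested if they had at least 1 FPKM in 3 or more libraries. Itgax, Itgam and Sparc reached that level in WT libraries only, so they entered the test through WT alone. All 12 markers of dividing cells were lower in each ID2KO library than in each WT library, with sums of 215 to 316 FPKM in ID2KO and 760 to 1066 FPKM in WT. In such bulk samples, fewer cells of a type and less RNA per cell cannot be told apart.

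Animal cells build cholesterol from acetyl-CoA. Mevalonate pathway enzymes make isoprenoid units, which are joined to squalene, closed to lanosterol and trimmed to cholesterol. The branch toward fatty acids starts from the same precursor. Both branches are controlled by the SREBP factors: SCAP carries them out of the endoplasmic reticulum when sterols are scarce, and INSIG proteins hold them back when sterols are plentiful. In T cells, activation and division are known to raise lipid synthesis, since a growing cell needs new membrane.

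In ID2KO cells 10 of the 31 tested lipid synthesis genes fell and none rose by edgeR, while 8.77% of all tested genes fell and 3.14% rose. The falls lay mostly in the sterol pathway, where 7 of 17 enzymes fell, led by Sqle and Idi1. Among the regulators and carriers the sterol carrier gene Stard4 fell, and among the fatty acid enzymes Fads1 and Elovl1 did. The genes that encode the SREBP machinery (Srebf1, Srebf2, Scap and Insig1) and the core enzymes of fatty acid synthesis (Acly, Acaca and Fasn) did not pass the threshold.

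By edgeR's quasi-likelihood test, with p-values adjusted over 10890 genes and a threshold of 0.05, 10 of 31 tested members were lower in ID2KO, while 8.77% of all tested genes were. The number of members that were higher was 0 by edgeR, DESeq2 and limma, and also 0 at an unadjusted p under 0.05, while 3.14% of all tested genes were higher by edgeR, 4.54% by DESeq2, 2.66% by limma and 11.5% at that unadjusted p. DESeq2 called 11 members lower and limma on log2(FPKM + 1) 9, against 9.82% and 7.92% of all tested genes, and 14 members were lower at an unadjusted p under 0.05, against 16.1%. The median log2 fold change was -0.45 over the members and 0.01 over all genes tested. The count of lower members was 6 without ID2KO replicate 3 and 6 without WT replicate 3, where 517 and 564 of the 10890 tested genes were lower. For 13 members every ID2KO library lay below every WT library in FPKM, as 16.8% of all tested genes did. No member had all ID2KO libraries above all WT libraries, as 15.3% of all tested genes did. Beside these falls all 12 markers of dividing cells, the myeloid and dendritic markers Itgax and Zbtb46 and the stromal marker Sparc fell too. Itgax and Sparc entered the test through the WT libraries alone. The tested myeloid and dendritic markers Lyz2, Xcr1 and Itgam did not pass. The part of these cells in the result was not tested.

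**Figure D1:**
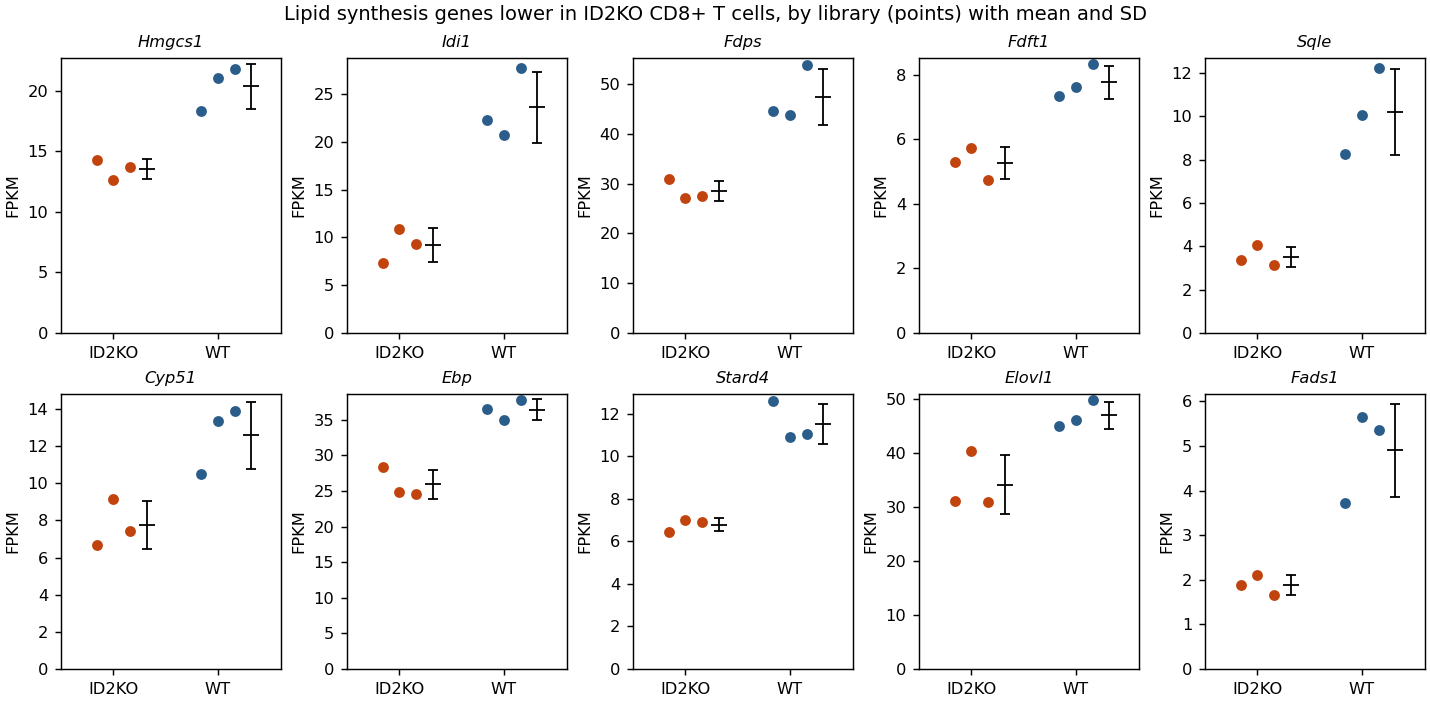
FPKM of the 10 lipid synthesis genes that fell, with 1 point per library (ID2KO left, WT right, replicates 1 to 3 from left to right in each) and a bar for the mean and SD of 3 libraries. In each panel the 3 ID2KO points lie below the 3 WT points, with the widest gaps, relative to WT, for Sqle, Idi1 and Fads1.

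The sterol pathway enzymes are given in the order in which they act. Hmgcs1 encodes HMG-CoA synthase, which joins acetoacetyl-CoA and acetyl-CoA at the head of the mevalonate pathway. It stood at 14.3, 12.7 and 13.8 FPKM in ID2KO and at 18.3, 21.1 and 21.8 FPKM in WT, with a log2 fold change of -0.60 (SE 0.11, edgeR adjusted p = 0.00734). The highest ID2KO library thus lay below the lowest WT library. The 3 kinase and decarboxylase steps that follow did not pass. Mvk (mevalonate kinase) ranged from 3.38 to 6.71 FPKM in ID2KO and from 3.53 to 4.58 FPKM in WT, so the groups overlapped, and Mvd (the decarboxylase) likewise overlapped at means of 8.67 ± 0.293 FPKM in ID2KO and 8.20 ± 1.41 FPKM in WT (SD, n = 3 each). Pmvk (phosphomevalonate kinase) was lower in each ID2KO library, at 9.81 to 11.4 FPKM against 12.8 to 16.5 FPKM in WT, without passing (log2 fold change -0.45, edgeR adjusted p = 0.139).

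Idi1 encodes the isomerase that interconverts the isoprenoid units. Its levels were 7.37, 10.9 and 9.33 FPKM in ID2KO, from 171, 244 and 210 counts, and 22.3, 20.8 and 27.8 FPKM in WT, from 543, 513 and 670 counts. No WT library came near the ID2KO range, and the log2 fold change was -1.38 (SE 0.16, edgeR adjusted p = 0.000573). The gene lies at chr13:8885606-8892396 in mm10. Fdps encodes farnesyl diphosphate synthase, whose product feeds sterols and also the prenyl groups attached to proteins. It stood at 30.9, 27.2 and 27.6 FPKM in ID2KO and at 44.5, 43.9 and 53.9 FPKM in WT, and was the most abundant sterol pathway gene in both groups. Its log2 fold change was -0.73 (SE 0.13, edgeR adjusted p = 0.00496).

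At the squalene steps, Fdft1 (squalene synthase) had 5.30, 5.74 and 4.74 FPKM in ID2KO and 7.34, 7.62 and 8.34 FPKM in WT. The groups stood apart, with a log2 fold change of -0.58 (SE 0.14, edgeR adjusted p = 0.0244). This call ended without ID2KO replicate 1 (edgeR adjusted p = 0.0639), ID2KO replicate 3 (0.134), WT replicate 1 (0.0599) or WT replicate 3 (0.0989), and with B cell markers as a covariate (0.0574). Over all alternatives its adjusted p ran from 0.0187 to 0.134. In the GENCODE annotation an exon of Fdft1 shares up to 774 bases with the cathepsin gene Ctsb on the opposite strand, whose log2 fold change was -0.05, and reads of the pair cannot be separated without strand. Other members that fell also share bases with an opposite-strand gene: Hmgcs1 (up to 458, Gm48342), Idi1 (323, Gm48574) and Cyp51 (166, Akap9). Fdps shares up to 197 bases with Gm43738 on the same strand. Akap9 did not pass the threshold, and the Gm genes were not tested.

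Sqle showed the largest change of the 31 tested members. It encodes squalene epoxidase, an oxygen-dependent enzyme regarded as a rate-limiting step beyond mevalonate, and lies at chr15:59315092-59331193. The ID2KO libraries held 3.35, 4.04 and 3.13 FPKM (74, 86 and 67 counts) and the WT libraries 8.28, 10.1 and 12.2 FPKM (192, 237 and 281 counts). The groups lay far apart, and the log2 fold change was -1.55 (SE 0.19, edgeR adjusted p = 0.000647). It ranged from -1.65 to -1.41 when single libraries were left out. Lss, which encodes lanosterol synthase, had 1.97 to 3.00 FPKM in ID2KO and 3.42 to 3.84 FPKM in WT. The groups did not overlap, yet the gene did not pass (log2 fold change -0.52, edgeR adjusted p = 0.0921).

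Of the 8 genes that turn lanosterol into cholesterol, 2 fell, while 8.77% of all tested genes did. Cyp51, a cytochrome P450 that removes a methyl group from lanosterol, had 6.67, 9.17 and 7.44 FPKM in ID2KO and 10.5, 13.4 and 13.9 FPKM in WT. The gap between the highest ID2KO and the lowest WT library was small, and the log2 fold change was -0.71 (SE 0.14, edgeR adjusted p = 0.0104). That call ended without ID2KO replicate 3 (edgeR adjusted p = 0.0605) or WT replicate 3 (0.0545), the largest values among the alternatives, whose lowest was 0.000696. Ebp, the sterol isomerase, stood at 28.3, 24.9 and 24.6 FPKM in ID2KO and at 36.6, 34.9 and 37.9 FPKM in WT (log2 fold change -0.50, SE 0.11, edgeR adjusted p = 0.0190). The groups were clear of each other, but the call ended without ID2KO replicate 3 (edgeR adjusted p = 0.104), WT replicate 1 (0.0615) or WT replicate 3 (0.0729), in a range over the alternatives of 0.00836 to 0.104.

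The other late enzymes did not pass by edgeR. Sc5d (sterol desaturase) came close, at 14.0, 21.5 and 15.3 FPKM in ID2KO and 23.5, 23.4 and 24.8 FPKM in WT (log2 fold change -0.52, edgeR adjusted p = 0.0512), and ID2KO replicate 2 was its highest ID2KO library. It passed by DESeq2 (adjusted p = 0.0305), as the eighth sterol pathway enzyme, and by edgeR without a filter (0.0387). Without ID2KO replicate 2 Sc5d stood at -0.70 (edgeR adjusted p = 0.00572), in a range over the alternatives of 0.00572 to 0.208. Hsd17b7 (a keto-sterol reductase) and Msmo1 (a methyl-sterol oxidase) had log2 fold changes of -0.50 and -0.25 with overlapping groups. Nsdhl, Dhcr7 and Tm7sf2, which encode the sterol dehydrogenase and 2 sterol reductases, lay at -0.03, -0.05 and 0.15, with 95% intervals of -0.35 to 0.29, -0.42 to 0.32 and -0.58 to 0.89. Each of these intervals excludes a fall as large as the estimate for Sqle or Idi1. The intervals of Nsdhl and Dhcr7 also exclude a fall as large as the estimate for Ebp (-0.50).

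Summed over the 17 sterol pathway enzymes, the level was 179, 186 and 171 FPKM in ID2KO and 243, 248 and 279 FPKM in WT. Each ID2KO library thus held between 66.4% and 72.5% of the WT mean. Of the 17 log2 fold changes 14 were below 0, as were 5236 of the 10890 over all tested genes. Their median was -0.50, against 0.01 over all tested genes. With B cell markers as a covariate 6 of the 17 fell, and 4 did without ID2KO replicate 3 and again without WT replicate 3. Of all 10890 tested genes, 911, 517 and 564 were lower in these 3 fits.

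**Figure D2:**
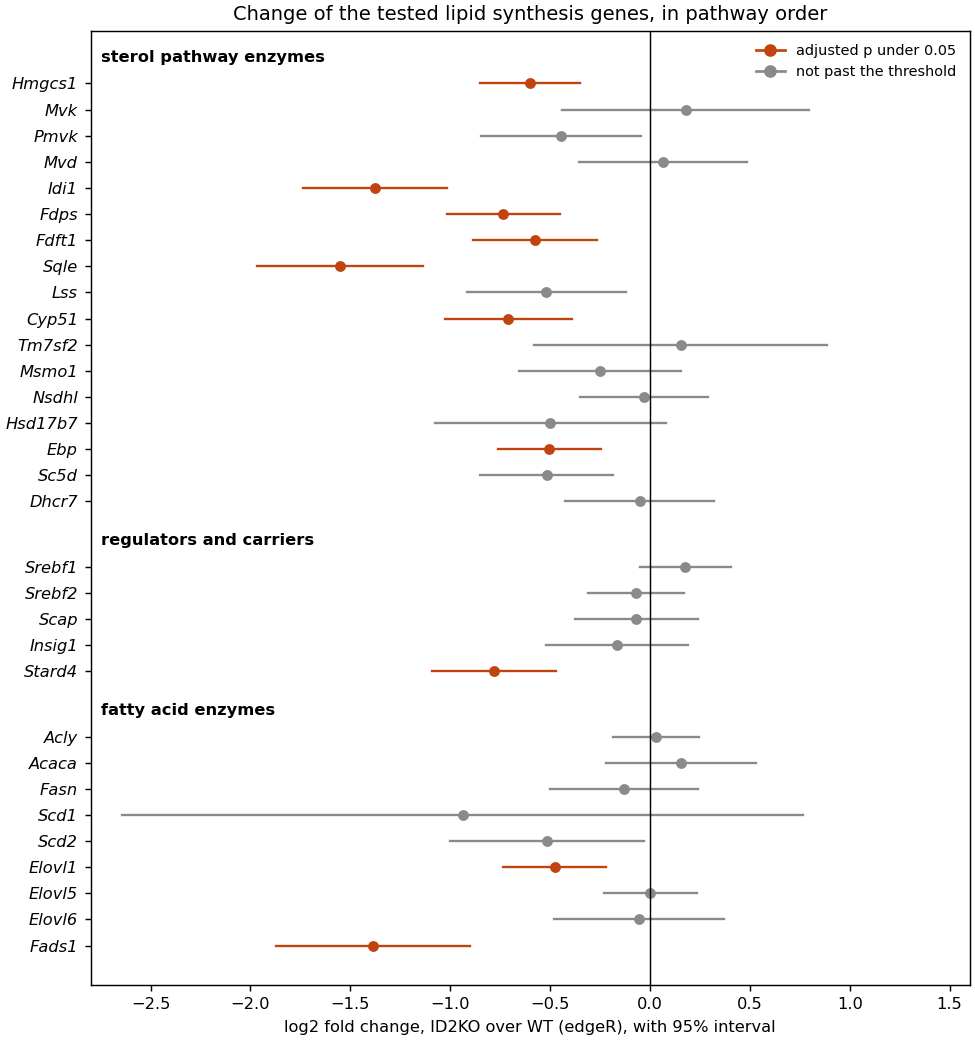
Log2 fold change, ID2KO over WT, of the 31 tested lipid synthesis genes with its 95% interval (edgeR, 3 libraries per group), in the order of the pathway within each role. Red marks adjusted p under 0.05: Idi1, Sqle and Fads1 stand farthest left, and the SREBP machinery genes lie near 0.

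The promoters of these enzymes were read from the RefSeq table of the GRCm38.p6 assembly, which has the coordinates of mm10. Each promoter holds 250 bases before and 50 after a gene's start, and 25 of the 32 members matched, with 32 promoters among them. The letter patterns searched, on both strands, were TCACNCCAC, a form of the sterol regulatory element that SREBP factors bind, CCAAT, the box bound by NF-Y, a partner of SREBP at sterol genes, the general E-box CANNTG, and CAGCTG or CAGGTG, the E-boxes that E proteins prefer and a subset of the general form. The promoters below are shown because they belong to 3 enzymes that fell and to 1, Nsdhl, that did not pass. Capitals mark the sterol regulatory element and the CCAAT box, which reads ATTGG on the other strand.
Hmgcs1, chr13:119690101-119690400, plus strand: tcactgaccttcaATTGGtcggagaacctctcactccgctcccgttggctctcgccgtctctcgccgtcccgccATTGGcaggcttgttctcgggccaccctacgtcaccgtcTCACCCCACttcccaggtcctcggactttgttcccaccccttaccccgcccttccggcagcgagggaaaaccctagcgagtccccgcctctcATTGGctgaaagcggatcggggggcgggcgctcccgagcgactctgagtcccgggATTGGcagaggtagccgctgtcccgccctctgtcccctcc
Idi1, chr13:8885356-8885655, plus strand: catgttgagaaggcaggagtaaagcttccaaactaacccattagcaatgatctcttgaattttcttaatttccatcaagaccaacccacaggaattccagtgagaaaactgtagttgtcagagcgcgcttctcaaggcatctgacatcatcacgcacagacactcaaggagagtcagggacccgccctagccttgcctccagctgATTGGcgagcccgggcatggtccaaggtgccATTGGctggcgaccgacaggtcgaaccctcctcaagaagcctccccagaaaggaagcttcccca
Cyp51, chr5:4104648-4104947, minus strand: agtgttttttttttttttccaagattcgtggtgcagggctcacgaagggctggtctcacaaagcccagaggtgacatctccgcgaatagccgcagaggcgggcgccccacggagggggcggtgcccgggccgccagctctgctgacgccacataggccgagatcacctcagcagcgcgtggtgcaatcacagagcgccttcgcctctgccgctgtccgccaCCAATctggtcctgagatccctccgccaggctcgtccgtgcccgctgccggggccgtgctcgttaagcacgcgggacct
Nsdhl, chrX:72918271-72918570, plus strand: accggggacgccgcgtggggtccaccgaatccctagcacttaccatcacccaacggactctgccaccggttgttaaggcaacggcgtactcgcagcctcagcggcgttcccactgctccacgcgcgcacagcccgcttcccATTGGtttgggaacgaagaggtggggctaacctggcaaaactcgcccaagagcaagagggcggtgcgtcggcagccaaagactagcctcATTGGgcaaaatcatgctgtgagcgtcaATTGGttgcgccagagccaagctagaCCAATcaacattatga

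Of the 10 members that fell, Fdps, Fdft1, Sqle, Stard4 and Fads1 were not searched, nor were Scd1 and Scd2 among those that did not pass. A gene was counted as holding a pattern where at least 1 of its promoters did. Of the 25 members searched, Hmgcs1 alone held the sterol regulatory element in this form, as TCACCCCAC starting 137 bases before the start, and 1.33% of the tested genes in the table held it. Every one of the 14 sterol pathway enzymes in the table held a CCAAT box, against 43.8% of the 8638 tested genes in the table. The box was in the promoters of all 4 that fell and all 10 that did not pass, so its presence did not separate them. A general E-box was in 11 of the 14 (78.6%), against 67.3% of tested genes, and the E protein form in 5 (35.7%), against 32.6%. Of the 39 E-boxes in member promoters 3 overlapped a CCAAT box and 0 the sterol regulatory element. The 39 were summed over promoters, so the 2 E-boxes shared by the overlapping promoters of Scap were counted in each. A match is a description of the letters in this window and not a bound site.

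None of the 4 genes of the SREBP machinery passed. Srebf2, which encodes the SREBP that mainly drives sterol genes, had 40.9, 44.2 and 47.4 FPKM in ID2KO and 45.2, 42.3 and 50.1 FPKM in WT. The groups overlapped, and the 95% interval of its log2 fold change ran from -0.31 to 0.17 around -0.07 (edgeR adjusted p = 0.728). Srebf1, the SREBP gene of fatty acid synthesis, had 19.9 to 24.3 FPKM in ID2KO and 19.0 to 20.2 FPKM in WT (log2 fold change 0.18, interval -0.05 to 0.41). Scap, the carrier of the SREBPs, and Insig1, which holds SCAP in the endoplasmic reticulum and is itself an SREBP target, lay at -0.07 and -0.16, with intervals of -0.38 to 0.24 and -0.52 to 0.19. SREBP activity depends on cutting of the protein, which levels of RNA do not measure.

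Stard4 was the member of this role that fell. It encodes a protein that carries cholesterol between membranes and is known as a sterol-responsive gene. The ID2KO libraries held 6.45, 7.00 and 6.91 FPKM and the WT libraries 12.6, 10.9 and 11.1 FPKM. The ID2KO libraries agreed closely with each other and lay well below WT, with a log2 fold change of -0.78 (SE 0.14, edgeR adjusted p = 0.00573) that kept its call in all 14 alternatives.

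In the fatty acid branch the core enzymes did not pass. Acly, which makes cytosolic acetyl-CoA from citrate, averaged 76.2 ± 3.33 FPKM in ID2KO and 73.9 ± 3.15 FPKM in WT (SD, n = 3 each), with a 95% interval of -0.18 to 0.25 on the log2 scale. Acaca, which makes malonyl-CoA, had log2 fold change 0.16 (interval -0.22 to 0.53), and Fasn, the fatty acid synthase, -0.13 (interval -0.50 to 0.24). The lower bound for Fasn is close to the estimate for Ebp.

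Fads1 fell the most in this branch. It encodes a front-end desaturase that makes polyunsaturated fatty acids such as arachidonic acid, and lies at chr19:10182877-10196874. It had 1.89, 2.11 and 1.66 FPKM in ID2KO, from 53, 57 and 45 counts, and 3.71, 5.64 and 5.36 FPKM in WT, from 109, 168 and 156 counts. No ID2KO library reached the lowest WT library, and the log2 fold change was -1.39 (SE 0.22, edgeR adjusted p = 0.00279). Fads2, its neighbour in the same synthesis route, was not tested because it was almost unlisted. Levels of Fads1 were low beside those of the other desaturase genes Scd1 and Scd2 in WT replicates 2 and 3.

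Among the elongases, Elovl1, which extends saturated very long chains, had 31.1, 40.4 and 30.9 FPKM in ID2KO and 44.9, 46.1 and 49.8 FPKM in WT. ID2KO replicate 2 stood nearer to WT than the other two ID2KO libraries, and the log2 fold change was -0.48 (SE 0.12, edgeR adjusted p = 0.0256). Its call ended in 7 of 14 alternatives, among them the B cell covariate (edgeR adjusted p = 0.0543) and the fits without ID2KO replicate 1 (0.0952), ID2KO replicate 3 (0.143), WT replicate 1 (0.0622) or WT replicate 3 (0.0973), in a full range of 0.00602 to 0.143. Exons of Elovl1 share up to 53 bases with the mitotic gene Cdc20 on the opposite strand, which itself fell (log2 fold change -2.06, edgeR adjusted p = 0.000394). The other elongases did not pass: Elovl5, the most abundant member, averaged 101 ± 13.8 FPKM in ID2KO and 99.6 ± 3.55 FPKM in WT (SD, n = 3 each), and Elovl6 3.41 ± 0.735 FPKM in ID2KO and 3.50 ± 0.326 FPKM in WT.

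The stearoyl-CoA desaturases, which put the first double bond into fatty acids, did not pass. Scd1 had 2.55, 16.4 and 1.82 FPKM in ID2KO and 3.20, 15.6 and 20.4 FPKM in WT. ID2KO replicate 2 and WT replicates 2 and 3 were high and the other three libraries low, and these were also the libraries high and low in B cell markers. The log2 fold change was -0.94 (95% interval -2.64 to 0.76, edgeR adjusted p = 0.471), and 0.08 with B cell markers as a covariate. Without ID2KO replicate 2 it was -2.55 (edgeR adjusted p = 0.0232, in a range over the alternatives of 0.0232 to 0.810). Scd2 followed in part, with 4.80, 10.3 and 6.44 FPKM in ID2KO and 9.21, 11.2 and 9.87 FPKM in WT. Its log2 fold change was -0.52 (edgeR adjusted p = 0.157), -0.33 with the covariate, and -0.84 without ID2KO replicate 2 (edgeR adjusted p = 0.00682, range 0.00682 to 0.387). Scd1 and Scd2 are close relatives, so the division of their reads is uncertain.

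**Figure D3:**
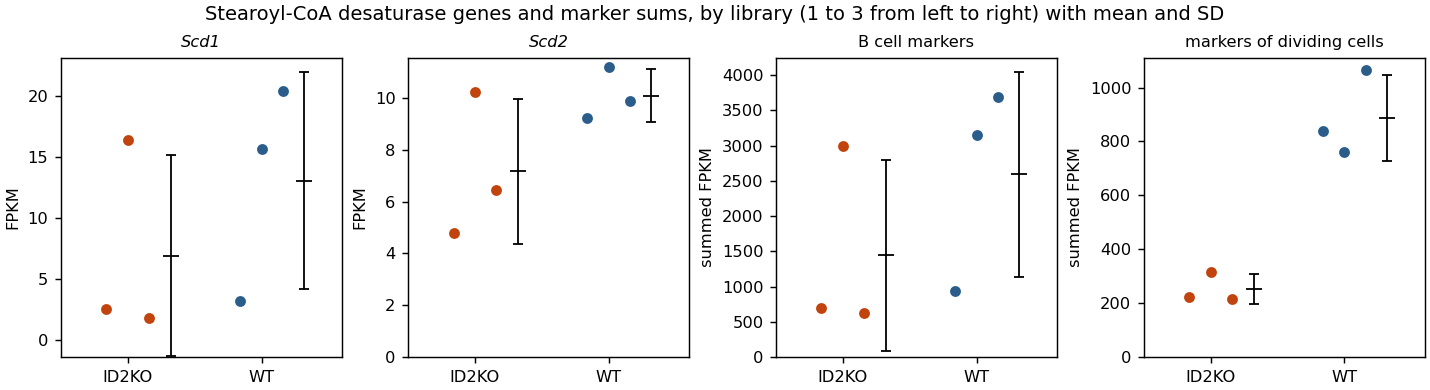
FPKM of Scd1 and Scd2 and summed FPKM of 14 B cell markers and 12 markers of dividing cells, with 1 point per library (ID2KO left, WT right, replicates 1 to 3 from left to right) and the mean and SD of 3 libraries. Scd1 and the B cell sum are both high in ID2KO replicate 2 and WT replicates 2 and 3, while the dividing cell sum separates the groups.

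Further genes of lipid metabolism were read from lists of other steps. Of 16 genes of sterol handling 12 were tested, with a median log2 fold change of 0.17. By edgeR 0 were lower and 0 higher, against 8.77% and 3.14% of all tested genes. At an unadjusted p under 0.05, 2 of the 12 were higher, against 11.5% of all tested genes, and 0 lower, against 16.1%. DESeq2 called 1 higher and limma 0, against 4.54% and 2.66% of all tested genes. Lipa, the lysosomal enzyme that frees cholesterol from its esters, stood at 43.1, 29.8 and 36.6 FPKM in ID2KO and 26.9, 26.0 and 22.8 FPKM in WT. It was above WT in every ID2KO library without passing by edgeR (log2 fold change 0.52, adjusted p = 0.0540), and it was the gene DESeq2 called (adjusted p = 0.0146, in a range over the alternatives of 0.00733 to 0.185). Mylip, an LXR target that removes lipoprotein receptors, and Scarb1, a receptor for high-density lipoprotein, did not pass and lay in opposite directions, at log2 fold changes of 0.31 and -0.40 (edgeR adjusted p = 0.135 and 0.222).

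Among 16 further sterol and isoprenoid genes, 0 passed by edgeR in either direction, against 11.9% of all tested genes, with a median of -0.12. At an unadjusted p under 0.05, 2 were lower and 1 higher (16.1% and 11.5% of all tested genes). DESeq2 and limma each called 1 lower (9.82% and 7.92% of all tested genes). Lbr, a nuclear membrane protein with sterol reductase activity, averaged 124 ± 3.39 FPKM in ID2KO and 154 ± 7.60 FPKM in WT (SD, n = 3 each, log2 fold change -0.32, edgeR adjusted p = 0.0612). Mbtps1, a protease that cuts SREBPs, and Erlin2, a part of the complex that degrades sterol pathway proteins, stood at 0.27 and -0.58 without passing (edgeR adjusted p = 0.112 and 0.114).

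Of 22 further genes of fatty acid synthesis and handling 18 were tested, and 4 were lower and 0 higher by edgeR (median -0.25). By edgeR 8.77% of all tested genes were lower and 3.14% higher. At an unadjusted p under 0.05, 8 were lower and 2 higher, against 16.1% and 11.5% of all tested genes. DESeq2 called 5 lower and 1 higher, against 9.82% and 4.54% of all tested genes. Limma called 3 lower and 0 higher, against 7.92% and 2.66%. Fabp5, a fatty acid binding protein, changed more than any of the 31 tested members, with 5.92, 10.8 and 5.69 FPKM in ID2KO and 23.6, 26.6 and 37.7 FPKM in WT. The groups were far apart, at a log2 fold change of -1.99 (SE 0.27, edgeR adjusted p = 0.00120). Mid1ip1, an activator of acetyl-CoA carboxylase, fell by 0.74 and Degs1, a desaturase of ceramide synthesis, by 0.51 on the log2 scale (edgeR adjusted p = 0.00695 and 0.00907), and Degs1 lost its call without ID2KO replicate 3 (edgeR adjusted p = 0.0673, range 0.000945 to 0.0673). Tecr, an enoyl-CoA reductase named here after its values were seen, also fell (log2 fold change -0.37, edgeR adjusted p = 0.0489). That call was at the threshold and ended in 11 of 14 alternatives, among them the fits without ID2KO replicate 1 (edgeR adjusted p = 0.0905), 2 (0.0865) or 3 (0.169) and without WT replicate 2 (0.116) or 3 (0.169), in a range over the alternatives of 0.0310 to 0.169.

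Fatty acid oxidation, the opposite pathway, also had 4 lower members and 0 higher of 17 tested by edgeR, with a median of -0.05. The edgeR shares over all tested genes were 8.77% lower and 3.14% higher. No member was higher at an unadjusted p under 0.05 or by DESeq2 or limma, while 11.5%, 4.54% and 2.66% of all tested genes were. At that unadjusted p 5 members were lower, against 16.1% of all tested genes. Acadl, a long-chain acyl-CoA dehydrogenase, had 21.8, 26.1 and 21.2 FPKM in ID2KO and 40.4, 38.1 and 44.0 FPKM in WT (log2 fold change -0.84, SE 0.11, edgeR adjusted p = 0.00127). The electron transfer flavoprotein genes Etfb and Etfa fell by 0.67 and 0.45 on the log2 scale (edgeR adjusted p = 0.0178 and 0.0185). Both calls ended without ID2KO replicate 3 (edgeR adjusted p = 0.0656 and 0.0757) or WT replicate 3 (0.0811 and 0.0799), the largest values among the alternatives, whose lowest were 0.00143 for Etfb and 0.00428 for Etfa. Hadh, a hydroxyacyl-CoA dehydrogenase named after its values were seen, stood at -0.53 (edgeR adjusted p = 0.0314), and its call ended without ID2KO replicate 1 (0.0779), 2 (0.0581) or 3 (0.119) or WT replicate 1 (0.0915) or 3 (0.127), in a range over the alternatives of 0.0140 to 0.127. Cpt1a, the gate for fatty acid entry into mitochondria and also named after its values were seen, lay at 0.04. Cpt2, named in the same way, was lower in each ID2KO library, at 2.53 to 2.84 FPKM against 3.71 to 5.27 FPKM in WT. It did not pass (log2 fold change -0.76, edgeR adjusted p = 0.0533).

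**Figure D4:**
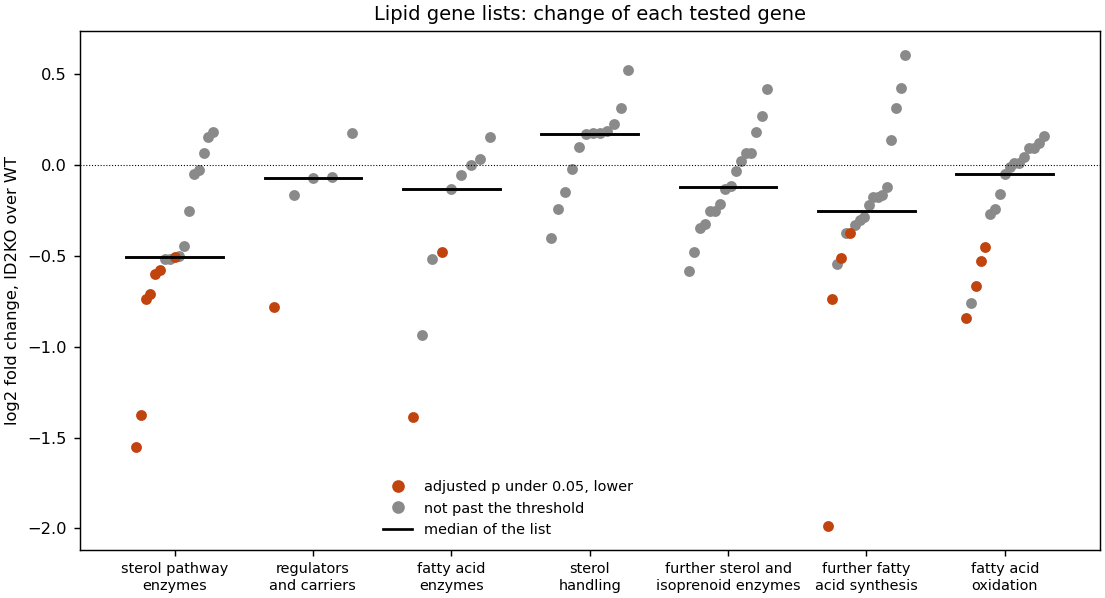
Log2 fold change, ID2KO over WT (edgeR), of each tested gene in 7 lists of lipid genes, sorted within each list, with a line at the list's median. The sterol pathway enzymes have the lowest median, -0.50, sterol handling the highest, 0.17, and Fabp5 is the lowest single gene.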

How the data were processed

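RNA-seq tables of 6 libraries, 3 ID2KO and 3 WT, were analysed. The authors deposited for each gene an RSEM expected count and an FPKM value, per the file headers. Per the submitters' processing notes, Bowtie2, RSEM and CASAVA were used with build mm10. Their versions are not given in the sources used here. No source used here states whether reads were counted by strand.

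Tables were joined by NCBI gene number, with missing genes taken as 0, and named from the RefSeq table of GRCm38.p6 (16707 of 16749 numbers matched). Expected counts were rounded to whole numbers. The 10890 genes that reached 1 FPKM in 3 or more of the 6 libraries entered a TMM-scaled edgeR 4.0.16 quasi-likelihood fit (R 4.3.3), tested two-sided with Benjamini-Hochberg adjustment over all of them at 0.05. All 31 tested members had that FPKM in every library, so none passed the filter through 1 group alone. The standard error was the size of the log2 fold change divided by the square root of F, and 95% intervals used the fit's degrees of freedom. Lists are described by counts and medians beside those of all tested genes. The members, lists and markers were chosen with earlier results of these data known. All 32 members are named, with Id2 and up to 3 genes of smallest p from each other list, and the text marks exceptions. On simulated counts of 10890 genes with 200 changed, edgeR found 77% of the 2-fold and 95% of the 4-fold changes, and 16 of its 186 calls were false. The simulation held no smaller changes and no B cell differences between libraries, and edgeR called 1297 genes in the data. These rates therefore need not hold for the data.

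Samples with the same replicate number did not deviate together (correlations of 0.118, 0.0756 and -0.0305), so the number was not used as a block in the reported fit. Between libraries of a group, chi-square over degrees of freedom was 5.62 to 18.6, and each library was counted as a separate sample. Such spread can be technical or biological, so it does not show that the libraries came from separate animals. The alternatives tried were no filter, DESeq2 1.42.0, edgeR with DESeq2 size factors, an FPKM minimum of 5, limma 3.58.1 on log2(FPKM + 1) and log2(FPKM + 0.1), the replicate block, the log2 summed FPKM of the B cell markers as a covariate, and leaving out 1 library at a time. Python 3.11.15 with pandas 2.3.3 and matplotlib 3.10.9 served for joining and drawing.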

Additional observations from a re-analysis of the deposited data

How the results depend on the processing

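Of 10 members that fell, Hmgcs1, Idi1, Fdps, Sqle and Stard4 kept their direction and call in all 14 alternatives, and Fads1 did in the 13 that tested it. Over the members and named genes no called value changed sign. Without 1 library, the genes higher numbered 84 to 480 and the genes lower 517 to 1082 among all genes tested, the lower members 6 to 13, the lower sterol pathway enzymes 4 to 8 and the lower fatty acid enzymes 1 to 4. The lower fatty acid enzymes numbered 1 with an FPKM minimum of 5, where Fads1 was left out by the filter, 1 with limma on log2(FPKM + 1), 1 with limma on log2(FPKM + 0.1) and 1 with the B cell covariate. For genes of sterol handling, 1 was higher with DESeq2, without a filter, with an FPKM minimum of 5 and with the replicate block, and 0 to 1 without 1 library. For further sterol and isoprenoid genes, 1 was lower with DESeq2, with limma on log2(FPKM + 1) and with the B cell covariate, and 0 to 1 without 1 library. For further fatty acid synthesis genes, 1 was higher with DESeq2, without a filter, with the replicate block and with the B cell covariate, and without 1 library 0 to 1 were higher and 2 to 4 lower. For fatty acid oxidation 1 to 4 were lower without 1 library. The causes of these changes were not tested.

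With the replicate block, 295 genes were higher and 888 lower, and 9 members fell, with Fdft1 losing its call (edgeR adjusted p = 0.0515). Not every sample correlated best with its own number. Few counts limit precision here, as for Tm7sf2 (25 to 45 counts, SE 0.33) and Mvk (47 to 88 counts, SE 0.28). Among the members that fell, Fads1 and Sqle had the largest SE, 0.22 and 0.19. Scd1 had the largest SE of the tested members, 0.76, at 69 to 829 counts. Fads2 could not be assessed at this depth.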
